A study of Mus musculus with 11 samples.

Results

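Fcgr2b, Fcer2a, Fcrl1, Fcrla, Cr2, Cd55, Cd81, Cd72, Siglecg and Pirb encode receptors with which B cells sense antibody, complement and self surfaces. These 10 genes were taken by name, for what their products do, out of the 48795 genes of the table, and each symbol matched 1 gene. Their RNA was sequenced in 11 libraries of B cells sorted from spleens of female mice that were 8 to 12 wk old, on day 10 after sheep RBCs (SRBCs) had been injected intravenously. SRBCs start a germinal center (GC) reaction, in which B cells mutate their antigen receptor in the dark zone and are selected in the light zone (LZ). LZ B cells were sorted as Fas+ CD38neg, CD86high and CXCR4low among B220+ cells without CD138 or IgD, from 4 Myc_WT mice (mice 1 to 4) and 4 Myc_VD mice (mice 5 to 8). Myc_VD mice carry the V394D change at the endogenous Myc locus, which disrupts the binding of MYC to MIZ1 in every cell of the animal and not only in B cells, and whether they were homozygous is not given in the sources used here. Memory B cells (MBCs), sorted as CD38+ CD273+ among B220+ cells without CD138 or IgD, came from Myc_WT mice 1, 3 and 4, whose LZ B cells are also in the study. Spleens were depleted of cells bound by CD43 beads before either sort, and none of the 10 genes encodes a marker of either gate. Each library is 1 mouse, Myc_WT mice 1 to 3 share a breeding label, mouse 4 has another and all Myc_VD mice have a further one, so that the genotype cannot be told apart from the breeding group.

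These receptors tune the signal of the B cell receptor. CR2 (CD21) binds complement fragments on antigen and, with the tetraspanin CD81 in a coreceptor complex, lowers the dose of antigen that a B cell needs. FCGR2B, CD72, SIGLECG and PIRB carry ITIM motifs, which recruit phosphatases such as SHP-1 and SHIP1 and dampen that signal. FCER2A (CD23) and FCGR2B bind IgE and IgG, which lets secreted antibody act back on the B cell, and CD55 (decay-accelerating factor) removes complement convertases from the cell's own membrane. In the GC, CR2, FCGR2B and FCER2A also sit on follicular dendritic cells (FDCs), which hold antigen for B cells in the LZ.

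Values are TPM, that is, read estimates corrected for the length of each transcript and brought to the same sum in every library, so that levels can be compared between genes. TPM keep no read depth, hence the precision of a single value is unknown and a 0 is written as listed at 0. From 11527 to 19537 genes were above 0 in a library. Ribosomal RNA took 35.7 to 44.5% of TPM in Myc_WT LZ libraries, 44.1 to 61.3% in Myc_VD LZ libraries and 36.1 to 37.5% in MBC libraries. Of 6 memory B cell markers 5 were higher in MBCs (Cd38, for example, rose from 11.4 to 14.8 TPM in Myc_WT LZ libraries to 199.7 to 276 TPM). Of 8 GC markers 5 were lower and 0 higher, and of 5 pan-B cell markers 2 were higher. Cd38 and Pdcd1lg2 (CD273) of the memory list and Fas and Cd86 of the GC list encode proteins used in the gates. Their differences were thus set in part by the sort and do not check it. Markers of FDCs, which could carry Cr2, Fcgr2b and Fcer2a RNA into a sort, summed over 6 genes to at most 1.01 TPM in Myc_WT LZ, 2.86 TPM in Myc_VD LZ and 4.62 TPM in MBC libraries, and Cxcl13 was listed at 0 in all 11. All 5 naive follicular B cell markers were higher in MBCs (summed level 751 to 1044 TPM, against 209 to 308 TPM in Myc_WT LZ), Fcmr among them. The gate took IgDneg cells, and the part of naive cells in any MBC value was not tested. Of the marginal zone, plasma cell, T cell and erythroid lists 0 genes passed in MBCs (1, 0, 0 and 0 at an unadjusted p under 0.05 in limma), and no platelet or FDC gene reached the mean of 1 TPM needed for a test. The marginal zone genes summed to 80.9, 203.9 and 132 TPM in MBCs of mice 1, 3 and 4, against 58.2 to 83.5 TPM in Myc_WT LZ. In the MBC library of mouse 3 the erythroid genes summed to 6713 TPM, against 7.60 and 53.4 TPM in those of mice 1 and 4, and in that of mouse 4 the T cell genes summed to 28.8 TPM, against 0 in the other two. For the Myc_VD comparison, 0 genes of any marker list passed in limma, with 3 erythroid genes higher and 2 GC, 1 memory and 1 plasma cell gene lower at an unadjusted p under 0.05, a threshold that 1.24% of all genes passed as higher and 15.7% as lower. MBC libraries also resembled each other less than LZ libraries did (r across genes 0.655 to 0.753, against 0.915 to 0.952 among Myc_WT LZ libraries). In sorted bulk samples, fewer cells of a type and less RNA per cell cannot be told apart.

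In Myc_WT LZ B cells, Cd81 was the highest of the 10 genes, with a mean of 275 ± 50.7 TPM (SD, n = 4), and Fcer2a followed with 197 ± 13.78 TPM. Neither overlapped its neighbor in this order. Cr2 (144 TPM), Fcrla (119 TPM), Fcrl1 (98.7 TPM), Siglecg (94.6 TPM) and Cd72 (88.7 TPM) came next, and each of these overlapped the next in its range over mice. Fcgr2b stood apart below them with 58.8 ± 10.2 TPM. Cd55 and Pirb were the lowest by far, at 8.83 ± 2.28 and 4.38 ± 1.00 TPM, and did not overlap each other. In Myc_VD LZ B cells Fcer2a (202 TPM) and Cd81 (186 TPM) traded places with overlapping ranges, and Cd55 (7.49 TPM) and Pirb (5.75 TPM) were again at the bottom. In MBCs the order was compressed: Fcer2a led with 507 ± 25.6 TPM (SD, n = 3), clear of all others, and from Cd81 (234 TPM) down to Pirb (70.0 TPM) every gene overlapped the next, with Cd55 at 179 ± 47.2 TPM just below Cr2.

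**Figure D1:**
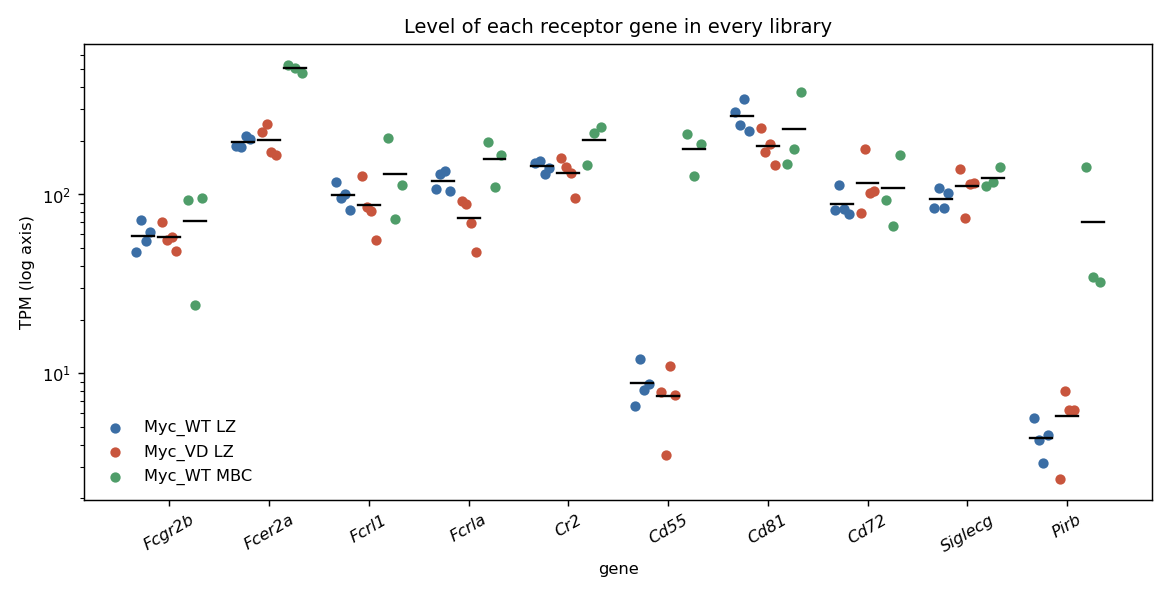
TPM on a log axis (y) of the 10 receptor genes (x) in each library; each point is 1 mouse, colors give Myc_WT LZ (n = 4), Myc_VD LZ (n = 4) and Myc_WT MBC (n = 3), and black lines are group means. Cd55 and Pirb are at 2.57 to 12.0 TPM in the LZ libraries and at 32.6 to 219 TPM in the MBC libraries, and Fcer2a is at 480.3 to 531 TPM in MBCs.

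MBCs were compared with Myc_WT LZ B cells to ask which of these genes differ between LZ B cells and memory cells. Cd55, Pirb and Fcer2a rose in MBCs and none of the 10 fell. Tests used limma on log2(TPM + 1), which shrinks differences of genes at low TPM, over the 13245 genes that averaged 1 TPM or more, with Benjamini-Hochberg adjustment at 0.05. The 3 of 10 genes stand beside 4.17% of all genes tested that were higher and 5.04% that were lower. For 4 of the 10 every MBC library was above every LZ library, which held for 11.8% of all genes tested, and for 0 of the 10 every MBC library was below, which held for 14.4%. The median log2 difference was 0.38 for the 10 genes and -0.14 for all genes tested. With 3 libraries against 4, the exact permutation test of a single gene (two-sided) cannot give less than 0.0571.

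Among the Fc receptors, Fcer2a (ENSMUSG00000005540, chromosome 8, 3681737 to 3694175, minus strand; GENCODE M21 on GRCm38, as for all positions here) encodes the low-affinity IgE receptor CD23, which ADAM10 sheds from the surface. It was at 186, 185, 213 and 204 TPM in LZ B cells of mice 1 to 4, and at 531, 509 and 480.3 TPM in MBCs of mice 1, 3 and 4. All 3 MBC libraries lay far above the LZ libraries, with little spread in either group. The mean was 2.57-fold higher, and the log2 difference was 1.36 (standard error, SE, 0.17; limma, adjusted p = 0.0037; exact permutation p = 0.0571), or 1.504 relative to all genes. With the mouse as a block, which keeps only mice 1, 3 and 4, the difference was 1.33 and the adjusted p 0.057. The naive B cell markers given above rose in the same 3 libraries, and their part in the Fcer2a value was not tested. Fcgr2b (ENSMUSG00000026656, chromosome 1, 170958617 to 170976547, minus strand), the inhibitory receptor for IgG, was at 47.5, 71.5, 54.6 and 61.5 TPM in LZ B cells, against 93.4, 24.0 and 96.1 TPM in MBCs. Thus 2 MBC libraries were above all LZ libraries and that of mouse 3, the library with the erythroid genes, below them. The log2 difference of 0.05 (95% interval -1.03 to 1.13) was far smaller than its SE of 0.48, without the MBC library of mouse 3 it was 0.69, and after quantile normalization it was -0.09. The part of the erythroid RNA in the values of mouse 3 was not tested.

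Neither Fcrl1 nor Fcrla, the Fc receptor-like genes among the 10, passed the threshold. Fcrl1 (ENSMUSG00000059994, chromosome 3, 87376387 to 87402934, plus strand), which encodes a surface coreceptor with activating motifs, was at 117, 95.5, 100.3 and 81.8 TPM in LZ B cells, against 206, 72.6 and 113 TPM in MBCs. The MBC values lay on both sides of the LZ range (log2 difference 0.28, 95% interval -0.51 to 1.07, adjusted p = 0.645 from limma). Fcrla (ENSMUSG00000038421, chromosome 1, 170917576 to 170927583, minus strand) encodes a receptor-like protein that stays inside the cell and binds immunoglobulin there, and its gene lies 31.0 kb from Fcgr2b. It was at 107, 130, 136 and 104 TPM in LZ B cells, against 197, 110.2 and 166 TPM in MBCs, where mouse 3 was again the lowest. Its log2 difference was 0.37 (95% interval -0.22 to 0.95, adjusted p = 0.398 from limma).

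Of the complement genes, Cd55 differed most of the 10. Cd55 (ENSMUSG00000026399, chromosome 1, 130439027 to 130462744, minus strand) was at 6.55, 12.0, 8.12 and 8.67 TPM in LZ B cells, against 219, 127 and 191 TPM in MBCs. The lowest MBC library was thus still far above the highest LZ library. The mean rose 20.3-fold, and the log2 difference was 4.19 (SE 0.33; limma, adjusted p = 0.000636; exact permutation p = 0.0571), or 4.33 relative to all genes. Under all 16 alternative settings the difference stayed between 4.02 and 4.41 with an adjusted p of at most 0.00452. Cr2 (ENSMUSG00000026616, chromosome 1, 195136811 to 195176716, minus strand), from which the mouse makes both CD21 and CD35 by splicing, which gene-level values cannot tell apart, was at 149, 154, 131 and 141 TPM in LZ B cells. In MBCs it was at 147, 219.9 and 239 TPM, with mouse 1 inside the LZ range and mice 3 and 4 above it (log2 difference 0.46, 95% interval -0.07 to 0.98, adjusted p = 0.242 from limma). The marginal zone markers given above were also higher in MBCs of mice 3 and 4 than in those of mouse 1. Their part in the Cr2 value was not tested. Cd81 (ENSMUSG00000037706, chromosome 7, 143052739 to 143067934, plus strand), a tetraspanin of the CR2 coreceptor complex, was at 287, 245, 339.99 and 226 TPM in LZ B cells, against 149, 179 and 373 TPM in MBCs. Mice 1 and 3 lay below all LZ libraries and mouse 4 above them, and the log2 difference of -0.33 had a 95% interval of -1.07 to 0.41. It was -0.07 without the MBC library of mouse 1 and -0.73 without that of mouse 4.

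Pirb (ENSMUSG00000058818, chromosome 7, 3711409 to 3720391, minus strand) was the only one of the inhibitory receptors among the 10 genes to pass. It encodes a receptor for MHC class I and was at 5.60, 4.22, 3.17 and 4.53 TPM in LZ B cells, against 143, 34.5 and 32.6 TPM in MBCs. All MBC libraries were above all LZ libraries, and mouse 1 was 4.39 times the lowest of the 3. The log2 difference was 3.39 (SE 0.56; limma, adjusted p = 0.00963; exact permutation p = 0.0571), or 3.53 relative to all genes, and without the MBC library of mouse 1 it was 2.70 (adjusted p = 0.0107). Myeloid cells also express Pirb. The summed level of 9 of their markers was 62.0, 54.6 and 196.6 TPM in MBCs of mice 1, 3 and 4, against 7.57 to 18.7 TPM in Myc_WT LZ, and of 5 tested 1 was higher (3 at an unadjusted p under 0.05, where 11.3% of all genes were higher and 15.8% lower; median log2 difference 2.05). The gene that passed was Csf1r, at 9.99, 5.89 and 16.4 TPM in MBCs and at most 0.08 TPM in Myc_WT LZ. Cd68 was at 16.6 to 22.5 TPM in MBCs and 6.87 to 9.54 TPM in Myc_WT LZ. C1qb was at 27.3, 0.16 and 16.3 TPM in MBCs, S100a8 and S100a9 were listed at 0 in all 3, and C1qa, C1qb and Cd14 were listed at 0 in all 8 LZ libraries, in which Pirb was at 2.57 to 7.94 TPM. Lyz2, at 0.15, 31.2 and 136 TPM in MBCs of mice 1, 3 and 4, made up most of the sum in mouse 4. C1qb, Cd68 and Cd14 were highest in the MBC library of mouse 1, as Pirb was, and Csf1r, Adgre1, C1qa and Lyz2 in that of mouse 4, and the part of myeloid cells in the Pirb value was not tested. Siglecg (ENSMUSG00000030468, chromosome 7, 43408204 to 43418358, plus strand), a sialic acid receptor that restrains calcium signals, was at 83.9, 108.6, 84.5 and 101 TPM in LZ B cells, against 111, 118 and 143 TPM in MBCs. Although the groups did not overlap, the log2 difference was 0.39 (SE 0.23, 95% interval -0.12 to 0.90) and did not pass (adjusted p = 0.309 from limma). Cd72 (ENSMUSG00000028459, chromosome 4, 43446462 to 43454628, minus strand), an inhibitory lectin, was at 82.2, 113, 82.5 and 77.4 TPM in LZ B cells, against 93.5, 67.0 and 167 TPM in MBCs, on both sides of the LZ range (log2 difference 0.21, 95% interval -0.54 to 0.96).

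**Figure D2:**
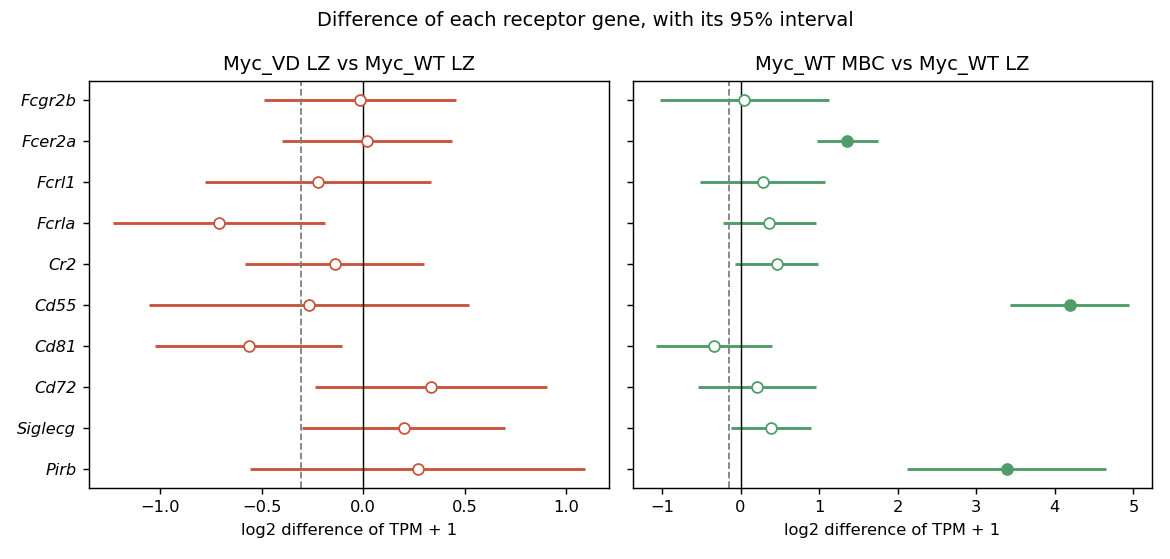
Log2 difference of TPM + 1 (x) of each receptor gene (y) between Myc_VD LZ and Myc_WT LZ (left, n = 4 and 4) and between Myc_WT MBC and Myc_WT LZ (right, n = 3 and 4); lines are 95% intervals from limma, filled points passed an adjusted p of 0.05, and the dashed line is the median of all genes tested. On the right Cd55 (4.19), Pirb (3.39) and Fcer2a (1.36) are filled, and on the left no point is.

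The spread within MBCs differed between the genes. The coefficient of variation over the 3 MBC libraries was 5.06% for Fcer2a, 13.4% for Siglecg and 24.2% for Cr2, and it was 57.4% for Fcgr2b and 90.2% for Pirb, against 7.13 to 25.8% for 9 of the 10 genes and 6.99% for Fcer2a in Myc_WT LZ libraries. The MBC library of mouse 3 was the lowest of the 3 for Fcgr2b, Fcrl1, Fcrla, Cd55 and Cd72, while that of mouse 1 was the lowest for Cr2, Cd81 and Siglecg and the highest for Fcer2a, Fcrl1, Fcrla, Cd55 and Pirb.

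The stretches in front of the starts of the 3 genes that rose are shown because a shared motif would be visible there. They are the 200 bases upstream of the RefSeq start on GRCm38.p6 (transcribed strand, 5′ to 3′), with capitals for matches, on either strand, to the motifs that are named after them. The table gives 3 starts for Fcer2a, of which the most upstream and the one with a match are given (chr8:3694175-3694374 and chr8:3690862-3691061). That of Cd55 is chr1:130462745-130462944 and that of Pirb chr7:3720383-3720582, all on the minus strand.
Fcer2a, first start: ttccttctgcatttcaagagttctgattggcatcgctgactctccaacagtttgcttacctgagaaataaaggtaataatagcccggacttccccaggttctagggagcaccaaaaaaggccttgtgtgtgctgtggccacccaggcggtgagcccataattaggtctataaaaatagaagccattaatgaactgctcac
Fcer2a, second start: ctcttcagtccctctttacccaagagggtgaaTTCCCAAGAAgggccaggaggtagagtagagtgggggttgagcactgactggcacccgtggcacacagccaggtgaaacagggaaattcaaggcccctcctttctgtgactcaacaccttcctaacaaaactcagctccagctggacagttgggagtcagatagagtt
Cd55: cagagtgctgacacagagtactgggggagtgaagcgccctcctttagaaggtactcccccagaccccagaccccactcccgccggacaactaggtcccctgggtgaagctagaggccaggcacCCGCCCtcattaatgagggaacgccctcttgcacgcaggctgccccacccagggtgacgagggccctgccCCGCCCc
Pirb: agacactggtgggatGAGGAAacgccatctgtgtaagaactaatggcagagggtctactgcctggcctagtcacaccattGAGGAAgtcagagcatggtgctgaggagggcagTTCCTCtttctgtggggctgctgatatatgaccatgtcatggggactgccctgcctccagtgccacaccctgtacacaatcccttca

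Both strands of the promoter table (250 bases before to 50 bases after each start, 32851 promoters) were searched for 5 motifs, and all 10 genes matched it, with 13 promoters. GGGCGG (a GC box) was in the promoters of Cd55, Cd81, Cr2 and Fcer2a, and in 35.7% of all promoters. GAGGAA (the core of a PU.1 site) was in those of Cd72, Fcrl1, Fcrla, Pirb and Siglecg, and in 28.3% of all. Pirb held it 3 times. A STAT site (TTC and GAA with 4 bases between them) was in that of Fcer2a alone, and in 6.95% of all, while CACGTG (the E-box that MYC and MAX bind) and an NF-kB site (GGGA and TTCC with 2 bases between them) were in 0 of the 13, and in 7.15 and 1.47% of all. The GC box of Fcer2a lies 206 bases before its second start, outside the stretch shown. No motif was held by all 3 genes that rose. A match describes these letters only.

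Reads of near-identical genes can be divided between them by the estimation, so each transcript was matched to those of other genes. Pirb shared 1936 bases at 97.3% identity with Gm14548, which was at 0 to 6.22 TPM, so its level is uncertain to the extent that reads were divided wrongly between them. Only the best match of each gene is given here. Pirb matched at least 155 other genes and Fcer2a at least 156, so the best match does not bound this uncertainty. Cd55 shared 1157 bases at 91.6% identity with Cd55b, which was at most at 0.14 TPM, and Fcgr2b shared 512 bases at 96.3% with Fcgr3, which was at most at 1.80 TPM. Fcer2a shared 149 bases at 93.3% with Cast (11.1 to 29.4 TPM), Siglecg 177 bases at 87.6% with Siglecf (listed at 0), Fcrl1 216 bases at 72.7% with Fcrls (at most 1.08 TPM) and Cr2 709 bases at 71.7% with Acsm2 (at most 0.08 TPM), while Fcrla, Cd81 and Cd72 had no match. For Fcer2a and Cd55, the gene most like it over the 11 libraries was sought among 8006 protein-coding genes that averaged 5 TPM or more, as a description in which the MBC and LZ libraries form separate groups. It was Serpinb1a for Fcer2a (Pearson r = 0.981) and Mndal for Cd55 (r = 0.989). Serpinb1a was at 84.1 to 88.8 TPM in MBCs and 2.79 to 12.3 TPM in LZ B cells, and Mndal at 367 to 519 and 18.4 to 45.7 TPM.

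Other genes of the same pathways were taken from 8 lists of ligands, partners and related receptors. Of 49 further genes tested in MBCs, 12 were higher and 1 was lower, beside 4.17% and 5.04% of all genes tested. Those of the Fc receptor list (1 of 4 higher) and the Fc receptor-like list (1 of 1 higher) were Fcmr and Fcrl5. Fcmr, the IgM receptor, was at 186 to 274 TPM in LZ B cells and 436 to 653 TPM in MBCs (log2 difference 1.24, adjusted p = 0.0137 from limma; 0.0808 with the block, 0.0637 without a trend and 0.0585 without LZ mouse 2). Fcrl5, a relative of Fcrl1 with inhibitory motifs, was at 0.91 to 2.39 TPM in LZ B cells, against 39.97, 99.6 and 39.4 TPM in MBCs, a log2 difference of 4.45 (adjusted p = 0.00238 from limma). Fcrl5 thus rose in MBCs while Fcrl1 and Fcrla overlapped between the cell types.

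Among 6 further complement genes, 1 was higher and 1 lower. Itgam, a subunit of complement receptor 3, was at 3.84, 5.12 and 9.18 TPM in MBCs and at most 0.12 TPM in LZ B cells (adjusted p = 0.0137 from limma; 0.15 with the block, and 0.0519 to 0.0679 without LZ mouse 2, 3 or 4), and it is also a myeloid gene. Cd59b, an inhibitor of the membrane attack complex, was at 2.51 to 9.03 TPM in LZ B cells and in MBCs at 0.65 TPM in mouse 3 and listed at 0 in the other two (adjusted p = 0.0424 from limma; 0.2 with the block, 0.101 with no filter, 0.151 after quantile normalization, and 0.0709 to 0.115 without any 1 LZ library or MBC mouse 1). Cr1l, which encodes a membrane regulator of complement convertases, overlapped between the cell types at 62.6 to 85.6 and 43.8 to 139.6 TPM. Adgre5, which encodes CD97, the binding partner of CD55, was higher too. It was at 4.92, 7.33, 6.55 and 6.19 TPM in LZ B cells, against 210.2, 81.2 and 186 TPM in MBCs, a log2 difference of 4.36 (SE 0.40; limma, adjusted p = 0.00128). For both Cd55 and Adgre5 the MBC library of mouse 3 was the lowest of the 3 and that of mouse 1 the highest.

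**Figure D3:**
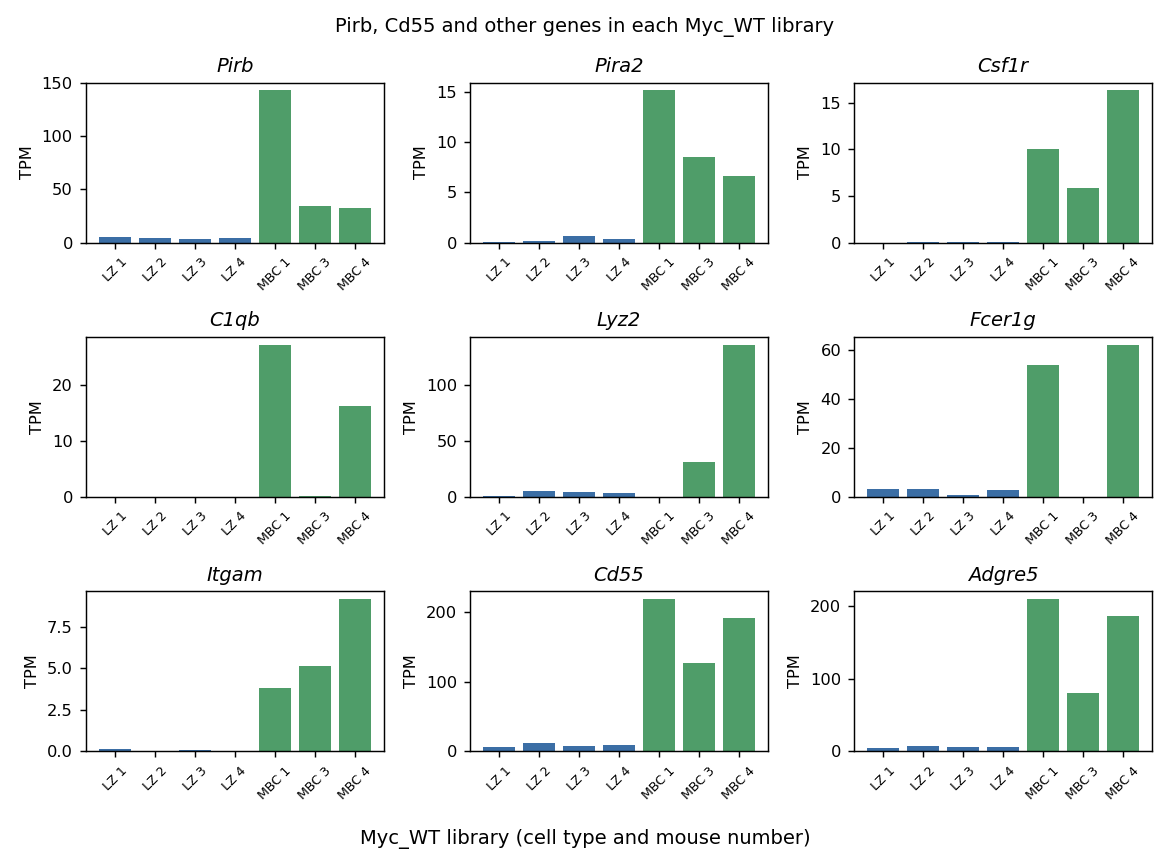
TPM (y, linear and starting at 0, with its own scale in each panel) of Pirb, its activating relative Pira2, the myeloid genes Csf1r, C1qb, Lyz2, Fcer1g and Itgam, and Cd55 with Adgre5 in each Myc_WT library (x: LZ of mice 1 to 4 in blue, MBC of mice 1, 3 and 4 in green; 1 bar is 1 mouse). Pirb (143 TPM) and C1qb (27.3 TPM) are highest in MBCs of mouse 1 and Lyz2 (136 TPM) in those of mouse 4, and Cd55 and Adgre5 are highest in mouse 1 and lowest in mouse 3 among MBCs.

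Of the coreceptor and tetraspanin list other than Cd81, 2 of 13 genes were higher and 0 lower. Tspan32, a tetraspanin of blood cells, was at 16.6 to 30.3 TPM in LZ B cells, against 41.7, 217.7 and 103 TPM in MBCs (adjusted p = 0.0392 from limma; 0.0679 with the block, 0.0899 with no filter, 0.0641 without a trend, and 0.0508 to 0.106 without any 1 library other than MBC mouse 1). Of the 7 further ITIM receptors tested, 3 were higher and 0 lower, and they rose beside Pirb. Ceacam1, an adhesion receptor, went from 5.97 to 12.9 TPM in LZ B cells to 50.3 to 98.8 TPM in MBCs (log2 difference 3.04, adjusted p = 0.00395 from limma). Pecam1, CD31, went from 21.3 to 36.2 TPM to 125 to 271 TPM (2.56, adjusted p = 0.00433). Btla, the receptor of HVEM, went from 116 to 126 TPM to 240.4 to 445 TPM (1.37, adjusted p = 0.0128; 0.0802 with the block, 0.0518 without a trend and 0.0507 without LZ mouse 2). Cd22, the sialic acid receptor nearest in role to SIGLECG, was at 393.9 to 419 TPM in LZ B cells and 421 to 567 TPM in MBCs without overlap and did not pass (log2 difference 0.27, adjusted p = 0.359 from limma).

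The activating relative of PIRB was higher too. Pira2, the 1 gene of the activating list that was found, was at 0.07, 0.15, 0.70 and 0.36 TPM in LZ B cells, against 15.2, 8.49 and 6.61 TPM in MBCs (log2 difference 3.02, adjusted p = 0.0102 from limma; 0.126 with the block and 0.0548 without LZ mouse 2). Pira2 is a paralog of Pirb, so its level is uncertain in the same way. Fcer1g, the signaling chain that PIRA receptors need, was at 53.8 and 62.3 TPM in MBCs of mice 1 and 4 and listed at 0 in those of mouse 3, against 0.76 to 3.44 TPM in LZ B cells (adjusted p = 0.334; 0.0035 without mouse 3). It too is a myeloid gene, and the part of myeloid cells was not tested. Of the ligands of these receptors, B2m and H2-D1, which form the MHC class I ligand of PIRB, were higher with Adgre5 (3 of 8, 0 lower). B2m went from 899 to 1485 TPM in LZ B cells to 3118 to 3260 TPM in MBCs (log2 difference 1.43, adjusted p = 0.00455 from limma) and H2-D1 from 186 to 245 TPM to 395 to 476 TPM (1.01, adjusted p = 0.0181; 0.111 with the block, 0.0887 without a trend, and 0.0519 to 0.0643 without LZ mouse 1, 2 or 4). Of the 9 ITIM effectors, through which FCGR2B, CD72, SIGLECG and PIRB act, 0 passed in either direction in limma (at an unadjusted p under 0.05, 2 were higher and 1 was lower, median log2 difference -0.27). Ptpn6, which encodes SHP-1, was at 187 to 228 TPM in LZ B cells and 129 to 252 TPM in MBCs, and Inpp5d, which encodes SHIP1, at 65.9 to 83.0 and 82.7 to 171 TPM (adjusted p = 0.121 from limma; 0.0154 without MBC mouse 4). Lyn, the kinase that phosphorylates ITIMs, was at 85.0 to 116 TPM in LZ B cells and 140.2 to 302 TPM in MBCs without overlap (log2 difference 0.97, adjusted p = 0.0778; 0.0484 without MBC mouse 1 and 0.0406 with all groups in 1 fit).

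Myc_VD LZ B cells were compared with Myc_WT LZ B cells to ask which of these genes depend on the binding of MYC to MIZ1. This comparison and that of MBCs share the 4 Myc_WT LZ libraries. Of the 10 genes 0 passed the threshold of limma in either direction, where 0.00777% of the 12869 genes tested were higher and 0.0389% lower, and 2 of the 10, Fcrla and Cd81, had an unadjusted p under 0.05, both lower. Of all genes tested 15.7% were lower and 1.24% higher at that unadjusted threshold, so that 2 of 10 is near the background. All genes tested had a median log2 difference of -0.31, and the 10 genes had one of -0.08, with 8 of the 10 above the median of all. Differences are therefore also given relative to that median. The median of the 10 genes was 0.26 after rescaling TPM by the median ratio and 0.20 after quantile normalization. It was 0.27 after removal of ribosomal RNA and mitochondrial genes. For all genes tested it was -0.01, -0.04 and -0.02 under these settings. Each of them made the differences of Fcgr2b, Fcrl1, Cr2 and Cd55 positive, so that the sign of these small differences rests on the scaling.

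Fcrla was the gene with the clearest difference. It was at 107, 130, 136 and 104 TPM in Myc_WT mice 1 to 4 and at 91.9, 88.5, 68.8 and 47.9 TPM in Myc_VD mice 5 to 8. All Myc_VD mice lay below all Myc_WT mice, which held for 1 of the 10 genes and for 9.16% of all genes tested, and for 0 of the 10 genes and 0.816% of all in the other direction. The mean was 119 ± 15.9 and 74.3 ± 20.3 TPM (SD, n = 4 each), and the log2 difference was -0.71 (SE 0.24; limma, adjusted p = 0.181), or -0.40 relative to all genes. The exact permutation test gave p = 0.0286, the smallest that 4 mice against 4 allow. The neighboring Fcgr2b was at 70.5, 55.9, 57.7 and 48.3 TPM in Myc_VD mice, all inside the Myc_WT range (log2 difference -0.01, 95% interval -0.49 to 0.46).

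Cd81 was at 235, 172, 190.4 and 147 TPM in Myc_VD mice and at 226 to 339.99 TPM in Myc_WT mice, so that only mouse 5 reached the Myc_WT range. Its log2 difference was -0.56 (SE 0.21; limma, adjusted p = 0.223; exact permutation p = 0.0571), or -0.26 relative to all genes. Its partner Cr2 was not separated. It was at 159, 143, 131 and 96.1 TPM in Myc_VD mice (log2 difference -0.14, 95% interval -0.58 to 0.30), and its sign was positive after each of the 3 rescalings.

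Fcer2a, at 222, 247.5, 174 and 165 TPM in Myc_VD mice, lay on both sides of the Myc_WT mice (log2 difference 0.02, 95% interval -0.40 to 0.44). Cd55 was at 7.87, 3.51, 11.02 and 7.57 TPM (-0.27, 95% interval -1.06 to 0.52) and Pirb at 2.57, 7.94, 6.28 and 6.21 TPM (0.27, 95% interval -0.56 to 1.09). Without 1 library the difference of Pirb ranged from 0.11 (without mouse 6) to 0.55 (without mouse 5). The 3 genes that were higher in MBCs thus overlapped between the genotypes in LZ B cells. With 4 mice a group, any difference inside these intervals remains compatible with the values. The intervals are not limits of detection, since Fcrla at -0.71 did not pass either.

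Among the remaining genes, Fcrl1 was at 127, 85.4, 80.9 and 55.9 TPM in Myc_VD mice, wider than the Myc_WT range on both sides (log2 difference -0.22, 95% interval -0.78 to 0.33), and its difference was -0.42 without mouse 5 and -0.03 without mouse 8. Siglecg was at 139.5, 73.6, 115 and 116 TPM, with 3 mice above all Myc_WT mice and mouse 6 below them (0.20, 95% interval -0.30 to 0.70, or 0.51 relative to all genes). Its difference was 0.08 without mouse 5 and 0.38 without mouse 6. Cd72 was at 78.4, 180.4, 102 and 105 TPM (0.33, 95% interval -0.24 to 0.91, or 0.64 relative to all genes), and without mouse 6 its difference was 0.10. Mouse 6 was thus the highest Myc_VD mouse for Cd72, Fcer2a and Pirb and the lowest for Siglecg and Cd55.

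In the pathway lists 0 of 42 further genes passed the threshold of limma, with 13 below and 0 above at an unadjusted p under 0.05 and a median log2 difference of -0.42. All genes tested leaned the same way, with the 15.7% and 1.24% given above. Ptpn6, which encodes the phosphatase SHP-1, was at 187 to 228 TPM in Myc_WT and 119 to 168 TPM in Myc_VD mice without overlap (log2 difference -0.50, adjusted p = 0.223 from limma; exact permutation p = 0.0286), or -0.19 relative to all genes. After removal of ribosomal RNA and mitochondrial genes its difference was -0.15. Inpp5d was at 65.9 to 83.0 and 51.1 to 68.2 TPM, Lyn at 85.0 to 116 and 77.0 to 108 TPM, Cd22 at 393.9 to 419 and 308 to 686 TPM, Cr1l at 62.6 to 85.6 and 46.8 to 68.6 TPM, Fcmr at 186 to 274 and 162 to 291 TPM and Fcer1g at 0.76 to 3.44 and 0 to 9.38 TPM. In each of these the genotypes overlapped. Cd59b, which was lower in MBCs, was at 2.51 to 9.03 TPM in Myc_WT mice and 0 to 2.36 TPM in Myc_VD mice without overlap (log2 difference -1.52, adjusted p = 0.174).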

How the data were processed

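RNA of sorted LZ B cells and MBCs was sequenced after cDNA amplification. The authors deposited TPM per gene, 1 column per library, made with STAR 2.5.2a and RSEM 1.3.0 on the Ensembl transcriptome of GRCm38 with strand taken into account. The submitters' processing notes also name DESeq2 1.18.1, and counts were not used here. RSEM shares reads between similar transcripts by estimation, TPM keep no depth, and a library rich in ribosomal RNA has lower TPM for its other genes. No interval for counting error could therefore be given.

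Gene names were taken from GENCODE M21, which matched 48435 of 48795 identifiers. Genes that averaged 1 TPM or more were tested on log2(TPM + 1) with limma 3.58.1 (R 4.3.3, eBayes with a trend), within the groups compared, with Benjamini-Hochberg adjustment over all genes tested and a threshold of 0.05. Exact permutation tests were two-sided. The mouse was a block in an alternative fit because 3 mice gave both libraries, although deviations of the LZ and MBC libraries from their group means correlated by only 0.0071, 0.0114 and -0.0463 within mice 1, 3 and 4. Other alternatives were another pseudocount, other filters, rescaling, quantile normalization, removal of ribosomal RNA and mitochondrial genes, no trend, all groups in 1 fit, each library left out and an unadjusted threshold. Transcripts were matched with blastn 2.17.0, and promoters came from RefSeq (GRCm38.p6).

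The 10 genes, the 8 pathway lists and the 11 marker lists were chosen with earlier results of these data known. Of 88 pathway list genes 81 were found by symbol. Named beside the 10 genes are up to 3 genes per pathway list and comparison that passed with the lowest p, genes with a defining role (Cd22, Cr1l, Fcer1g, Fcmr, Ptpn6, Inpp5d and Lyn) and the gene most like each member that passed, apart from some that are not reported here. Marker genes, and in the Myc_VD comparison Cd59b, Cd37, Cd53, Dok3, Sema4d, H2-K1 and Fcamr, were named after their values were seen.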

Additional observations from a re-analysis of the deposited data

Results flagged for a closer look

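In 5 of 58 groups of 4 LZ libraries (29 genes), 1 library lay far from the other 3, and chance alone flags about 5% of such groups. Among the 10 receptor genes this was so for Cd72 alone, which was at 112.76 TPM in Myc_WT mouse 2 and at 77.4 to 82.5 TPM in the other 3 Myc_WT mice. Pecam1 was at 14.74 TPM in Myc_VD mouse 6, far below the other Myc_VD mice. Fcer1g was at 0.76 TPM in Myc_WT mouse 3, below 3.04 to 3.44 TPM in the others. Itgam was at 0.21 TPM in Myc_VD mouse 8 and Pira2 at 0.42 TPM in Myc_VD mouse 5, and each was listed at 0 in the other 3 Myc_VD mice.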

How the results depend on the processing

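With the mouse as a replicate block, 2 of the 10 genes, Cd55 and Pirb, were called in MBCs (adjusted p = 0.00294 and 0.0361 from limma) and Fcer2a was not (0.057), and 248 of all genes were called in place of 1219. Under every other alternative Cd55, Pirb and Fcer2a were the 3 called, and the cause of the loss was not tested. All genes called in MBCs numbered 608 with no filter, 3587 at an unadjusted p under 0.05, and 342 (without LZ mouse 2) to 2754 (without MBC mouse 4) when 1 library was left out, with 410, 375 and 519 without LZ mouse 1, 3 or 4. In the Myc_VD comparison 6 genes were called. The number was 0 after median ratio rescaling, with all groups in 1 fit, with no filter or with pseudocount 0.1. It was 1 after quantile normalization or after removal of ribosomal RNA and mitochondrial genes, and 15 with a mean of at least 5 TPM. At an unadjusted p it was 2180, and with 1 library left out it was 0 (without Myc_WT mouse 2 or 4) to 254 (without Myc_VD mouse 5). Of the 10 receptor genes 0 were called in any of these except 2 at an unadjusted p.

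Signs changed only for differences that had not passed the threshold in the comparison concerned. After median ratio rescaling, quantile normalization and removal of ribosomal RNA and mitochondrial genes the Myc_VD differences were 0.325, 0.226 and 0.33 for Fcgr2b, 0.119, 0.04 and 0.121 for Fcrl1, 0.203, 0.179 and 0.206 for Cr2, 0.037, 0.034 and 0.039 for Cd55, and 0.277, 0.231 and 0.281 for Lyn, and those of Inpp5d were 0.034 and 0.036 after the first and last. When 1 library was left out, Myc_VD differences ranged from -0.11 to 0.083 for Fcgr2b, -0.083 to 0.11 for Fcer2a, -0.237 to 0.004 for Cr2, -0.462 to 0.009 for Cd55, -0.101 to 0.18 for Fcmr, -0.051 to 0.334 for Cd22, -1.064 to 0.061 for Fcer1g and -0.134 to 0.03 for Lyn. Those of MBCs ranged from -0.284 to 0.694 for Fcgr2b, -0.111 to 0.635 for Fcrl1, -0.146 to 0.505 for Cd72, -0.173 to 0.652 for Cr1l and -0.379 to 0.103 for Ptpn6, and quantile normalization gave -0.094 for Fcgr2b. With the sign kept, they ranged from 0.187 to 0.603 for Fcrla and -0.728 to -0.069 for Cd81 in MBCs. The cause of these changes was not tested. The depth of the libraries is unknown, and with 3 MBC libraries a difference of Fcgr2b, Fcrl1 or Cd81 would have to be large to pass.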
